A study of Mus musculus with 4 samples.

Results

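Enzymes that add or remove methyl groups on histone lysines, other than Ezh2 itself, were examined in livers of mice that carry the K307R substitution in Ezh2 on both copies and in livers of wild-type (WT) mice. Ezh2 is the enzyme of Polycomb repressive complex 2, where it methylates lysine 27 of histone H3 (H3K27). The genes were taken by symbol: Kdm2 to Kdm8 and the Kmt2, Kmt5, Setd, Setdb, Nsd, Prdm, Suv39h, Ehmt and Jmjd families with Dot1l, Phf2 and Phf8, restricted to protein-coding genes and leaving out Y-linked genes and a further Kdm gene not analysed here. The annotation held 61 such genes and the tables held 58 of the 17543 genes listed in any liver. Kdm4d, Prdm12 and Prdm13 were listed in no liver. The data were bulk RNA-seq of 2 Ezh2 K307R livers and 2 WT livers, all of strain C57BL/6, with no other allele or treatment in the labels. The labels name no tissue-specific driver for the substitution, and they are silent on sex, on age and on when the livers were taken. Nothing in them says that the 2 livers of a genotype came from separate animals, so the spread behind each p value is that between these samples, which may be technical.

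Methyl groups on histone lysines mark the state of chromatin. Methylation of H3K4 accompanies active promoters and enhancers, that of H3K36 and H3K79 accompanies transcribed genes, and that of H3K9, H3K27 and H4K20 accompanies repressed or compacted chromatin. Most writers carry a SET domain, Dot1l being the exception, and most erasers in the families examined carry a JmjC domain that works with iron and 2-oxoglutarate, an intermediate of the citric acid cycle. The H3K27 erasers Kdm6a and Kdm6b remove the mark that Ezh2 writes, and Kdm6a sits in the same complexes as the H3K4 writers Kmt2c and Kmt2d.

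The summed expected counts, RSEM's estimated reads per gene, ran from 18602928 to 20044832 per liver. The Ezh2 transcript stood at 3.45 and 2.56 CPM (counts scaled to library size) in the K307R livers, against 3.36 and 3.93 CPM in the WT livers. Gene counts cannot show a point substitution, so the genotype labels could not be checked on Ezh2. Marker genes of hepatocytes summed to 116075 and 119362 CPM in the K307R livers and 125246 and 126954 CPM in the WT livers. Of the 6 stellate cell markers 2 passed the test as higher in the K307R livers, with sums of 289 and 224 CPM in those livers against 90.3 and 130 CPM in the WT livers. Of the 4 erythroid markers 1 passed as lower, while the list's median log2 fold change was 0.73 and its sums were 498 and 562 CPM in the K307R livers against 353 and 428 CPM in the WT livers. No marker of the other 8 lists passed. The Kupffer cell markers summed to 256 and 164 CPM in the K307R livers against 124 and 152 CPM in the WT livers, and the sinusoidal endothelial markers to 84.3 and 95.1 CPM against 56.4 and 77.9 CPM. Both of these sums were thus higher in the K307R livers without overlap, as were those of the stellate, erythroid and T cell markers. The T cell sums were 4.09 and 4.19 CPM in the K307R livers against 2.2 and 3.83 CPM in the WT livers. The hepatocyte sums were lower in the K307R livers without overlap, and the sums of the remaining lists overlapped. The neutrophil marker Retnlg was at 0 in a liver. In bulk tissue, fewer cells of a type and less RNA per cell cannot be told apart. The genotypes also differed in sex-chromosome transcripts. Xist, the RNA of the inactive X chromosome, had 6172 and 11201 reads in the K307R livers and 6 reads in each WT liver. The Y-linked Ddx3y had 0 reads in both K307R livers and 1168 and 1108 reads in the WT livers. Genotype and sex-chromosome pattern cannot be told apart in these 4 livers. Of 7 clock transcripts 4 passed the edgeR test as higher (Arntl, Npas2, Clock, Nr1d1) and 2 as lower (Ciart, Per2) in the K307R livers. Arntl, a core activator of the circadian clock, stood at 12.3 and 23.7 CPM in the K307R livers, against 1.10 and 1.18 CPM in the WT livers. The part of these cell type markers and of the clock transcripts in the values below was not tested.

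The promoters of the 4 X-linked members are shown because the genotypes also differ in their sex-chromosome transcripts and because these 4 genes do not share a direction. Each line gives the 250 bases before a start listed in RefSeq's promoter table, 5′ to 3′ on the gene's strand, with the CG dinucleotides in capitals. All 4 of these starts lie inside the outermost bounds that RefSeq's gene table gives for the genes, so the windows need not cover the start in use in liver. In build GRCm38.p6 they lie at chrX:18162325-18162574 on the plus strand (Kdm6a, 15 CG), chrX:152232977-152233226 on the plus strand (Kdm5c, 10 CG), chrX:151520422-151520671 on the plus strand (Phf8, 19 CG) and chrX:8074362-8074611 on the minus strand (Suv39h1, 25 CG, the more CG-rich of its 2 windows).
Kdm6a: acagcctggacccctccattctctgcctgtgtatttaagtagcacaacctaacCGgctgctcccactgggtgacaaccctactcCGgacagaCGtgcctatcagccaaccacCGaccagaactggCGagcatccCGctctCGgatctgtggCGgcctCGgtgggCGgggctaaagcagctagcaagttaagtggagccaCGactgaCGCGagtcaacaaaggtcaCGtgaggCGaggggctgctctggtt
Kdm5c: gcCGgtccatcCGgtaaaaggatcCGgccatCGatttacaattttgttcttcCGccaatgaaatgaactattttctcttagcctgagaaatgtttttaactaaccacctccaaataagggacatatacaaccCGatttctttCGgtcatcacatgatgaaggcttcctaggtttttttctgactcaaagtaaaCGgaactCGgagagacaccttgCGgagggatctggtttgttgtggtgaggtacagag
Phf8: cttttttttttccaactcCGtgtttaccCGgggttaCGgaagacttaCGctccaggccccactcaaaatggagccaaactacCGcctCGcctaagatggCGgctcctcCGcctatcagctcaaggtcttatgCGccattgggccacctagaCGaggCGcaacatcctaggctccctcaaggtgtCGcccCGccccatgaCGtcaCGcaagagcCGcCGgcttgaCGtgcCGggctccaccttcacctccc
Suv39h1: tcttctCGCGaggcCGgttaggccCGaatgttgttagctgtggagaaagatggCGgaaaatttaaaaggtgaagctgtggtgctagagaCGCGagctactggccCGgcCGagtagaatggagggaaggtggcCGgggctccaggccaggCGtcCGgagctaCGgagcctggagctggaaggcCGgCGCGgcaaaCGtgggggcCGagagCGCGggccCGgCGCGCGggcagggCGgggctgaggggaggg
The observed over expected CG frequency was 0.677 for Kdm6a, 0.842 for Kdm5c, 0.896 for Phf8 and 0.996 for Suv39h1.

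CG-rich promoters were frequent across the enzymes. RefSeq windows of 250 bases before to 50 bases after a gene start were at hand for 43 of the 58 members, as 57 windows, and for 27025 genes of the whole table, as 32851 windows. The median observed over expected CG frequency was 0.866 in the members' windows and 0.384 in all windows. A window was called CG-rich at a frequency of at least 0.6 and a GC content of at least 50%. This held for 47 member windows (82.5%), against 33.5% of all windows. All windows include genes listed in no liver here, so they are not a background of genes transcribed in liver. Motifs were counted on both strands. The E-box CACGTG was in 8.77% of member windows and 7.15% of all windows. The ROR element AGGTCA was in 8.77% of member windows and 16.3% of all windows, and the STAT5 element TTCNNNGAA was in 10.5% and 8.30%. The CCAAT box was in 42.1% of member windows and 37.4% of all windows. The hypoxia core ACGTG, which every E-box contains, was in 24.6% and 19.6%. The Kdm6a window held the E-box and the ROR element, sharing letters, and the Kdm5c window held only the CCAAT box among these 5 motifs. These matches describe letters in the windows.

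Nearly all of the enzymes were transcribed in the liver at low to moderate levels. On the scale of summed FPKM, which divides by transcript length, 5 members averaged 10 or more over the 4 livers, 7 averaged 5 to 10, 34 averaged 1 to 5, 5 averaged 0.1 to 1 and 7 stayed below 0.1. The highest were Jmjd8, Setd3, Ehmt2, Kmt5a and Nsd3. In the annotation Jmjd8 overlaps the gene Stub1 and Setd3 the gene Ccnk, and reads of overlapping genes are uncertain. Jmjd8, a JmjC protein of the endoplasmic reticulum, had 30.9 and 32.3 FPKM in the K307R livers and 29.9 and 26.0 FPKM in the WT livers. Setd3, which methylates a histidine of actin, had 32.5 and 25.2 FPKM in the K307R livers and 26.9 and 27.5 FPKM in the WT livers. These 2 levels overlapped, so their order is not separated by the spread between livers. Ehmt2 (G9a), which writes H3K9 mono- and dimethylation together with Ehmt1, followed at 17.3 and 16.5 FPKM in the K307R livers and 13.6 and 17.2 FPKM in the WT livers. Kmt5a, the H4K20 monomethyltransferase, had 11.1 and 12.8 FPKM in the K307R livers and 13.1 and 20.4 FPKM in the WT livers. Nsd3, a writer of H3K36 dimethylation, had 8.09 and 12.9 FPKM in the K307R livers and 8.57 and 11.3 FPKM in the WT livers. Ehmt2 overlapped with Kmt5a and Kmt5a with Nsd3 in the same way, while both Jmjd8 and Setd3 stayed above Ehmt2 in every liver.

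**Figure D1:**
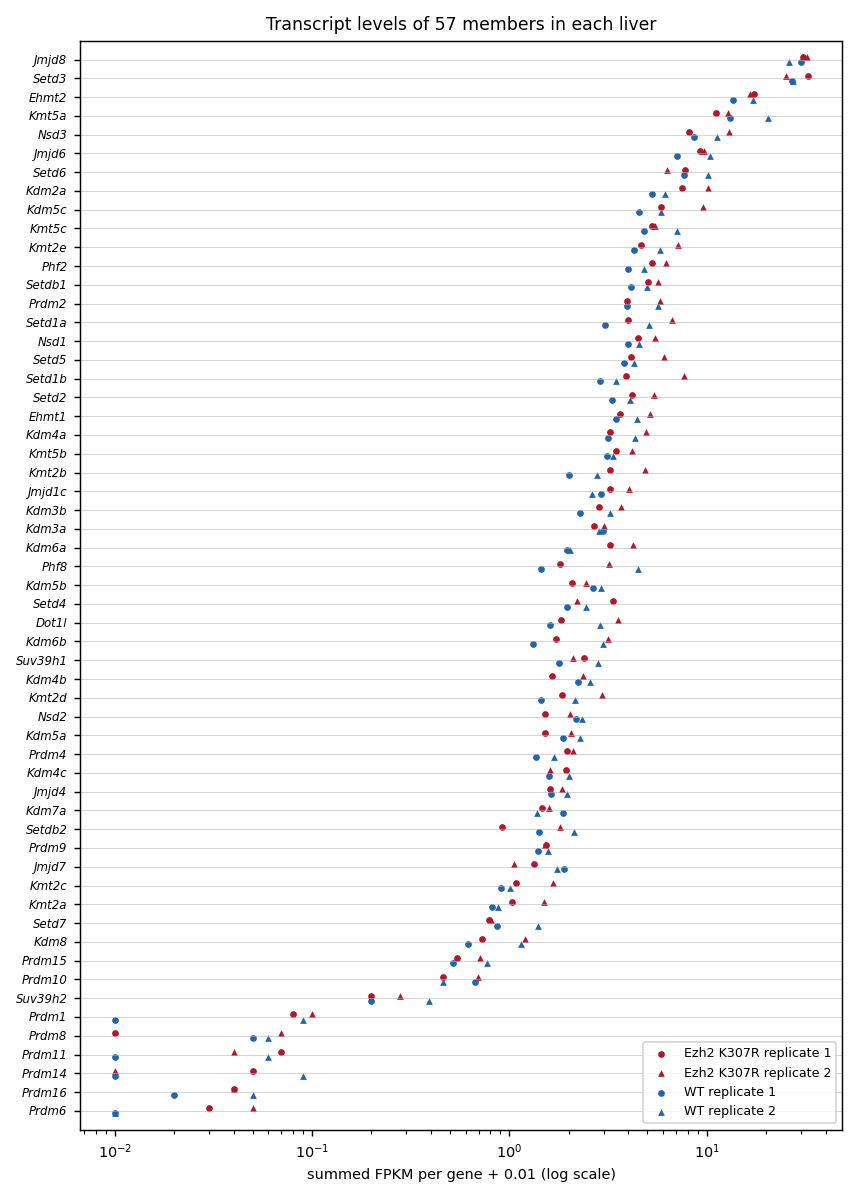
Summed FPKM per gene plus 0.01, on a log scale, for 57 of the 58 members in each of the 4 livers, with K307R livers in red and WT livers in blue and the replicates as circles and triangles. Jmjd8 and Setd3 stand at the top near 30 FPKM, and the 6 members under 0.1 FPKM at the bottom are all PRDM genes.

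The members below 0.1 FPKM, among them Prdm1, Prdm6, Prdm8, Prdm11, Prdm14 and Prdm16, were also the 7 that failed the filter on low counts. Prdm1, known as a regulator of plasma cell formation, had 7 and 9 reads in the K307R livers and 0 and 8 reads in the WT livers. Prdm16, known from brown fat, had 5 and 4 reads in the K307R livers and 2 and 7 reads in the WT livers. Prdm6, Prdm8, Prdm11 and Prdm14 had at most 4 reads in any liver. No member had 0 reads in both livers of one genotype and 10 or more in a liver of the other. Prdm6 had 1 and 2 reads in the K307R livers and 0 in both WT livers, which is within the 3 reads that a count of 0 allows for counting error.

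No member passed the test between genotypes. The edgeR quasi-likelihood test with Benjamini-Hochberg adjustment over 12837 genes called 0 of the 51 members tested, against 2.86% of all genes tested. Of all genes 178 (1.39%) were higher and 189 (1.47%) lower in the K307R livers. The smallest adjusted p among the members was 0.0953, for Kdm6a. At an unadjusted p under 0.05 there were 5 members (9.80%), namely Kdm6a, Kmt2b, Kdm2a and Setd1b with positive and Kmt5a with negative log2 fold changes, against 16.8% of all genes (8.5% higher and 8.31% lower). DESeq2 and limma-voom each called 0 members as well, with 5 at an unadjusted p under 0.05.

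The sizes of the differences were modest. Log2 fold changes of K307R over WT ran from -0.69 to 0.82 over the 51 members, with a median of 0.05, against a median of 0.01 over all genes. The median absolute log2 fold change was 0.26 for the members and 0.28 for all genes. The CPM values of the genotypes did not overlap for 21 members (41.2%), 11 higher and 10 lower in the K307R livers, against 48.6% of all genes (25.2% higher and 23.4% lower). The 95% interval of the log2 fold change lay within -1 to 1, that is within a 2-fold change either way, for 36 members (70.6%) and 57.0% of all genes. For the other 15, among them Kdm6a, Kmt2b, Setd1b, Phf8 and Jmjd7, the interval reached past a 2-fold change. The median half-width of the interval was 0.53, with a range of 0.42 to 1.13. Leaving out 1 of the 4 livers changed the log2 fold change of 46 members by more than 1.5 times or turned its sign. The exceptions were Kdm6a, Kdm5b, Jmjd7, Phf2 and Prdm4. Values near 0 meet this rule readily, such as Prdm9 (-0.06 to 0.00) and Ehmt2 (0.00 to 0.11). No share over all genes stands beside this count, so it is not a trait of the members. Over these omissions Kmt2b ran from 0.40 to 0.94, Setd2 from 0.13 to 0.45, Kmt5a from -0.75 to -0.34, Nsd2 from -0.64 to -0.24 and Kdm5a from -0.52 to -0.12.

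**Figure D2:**
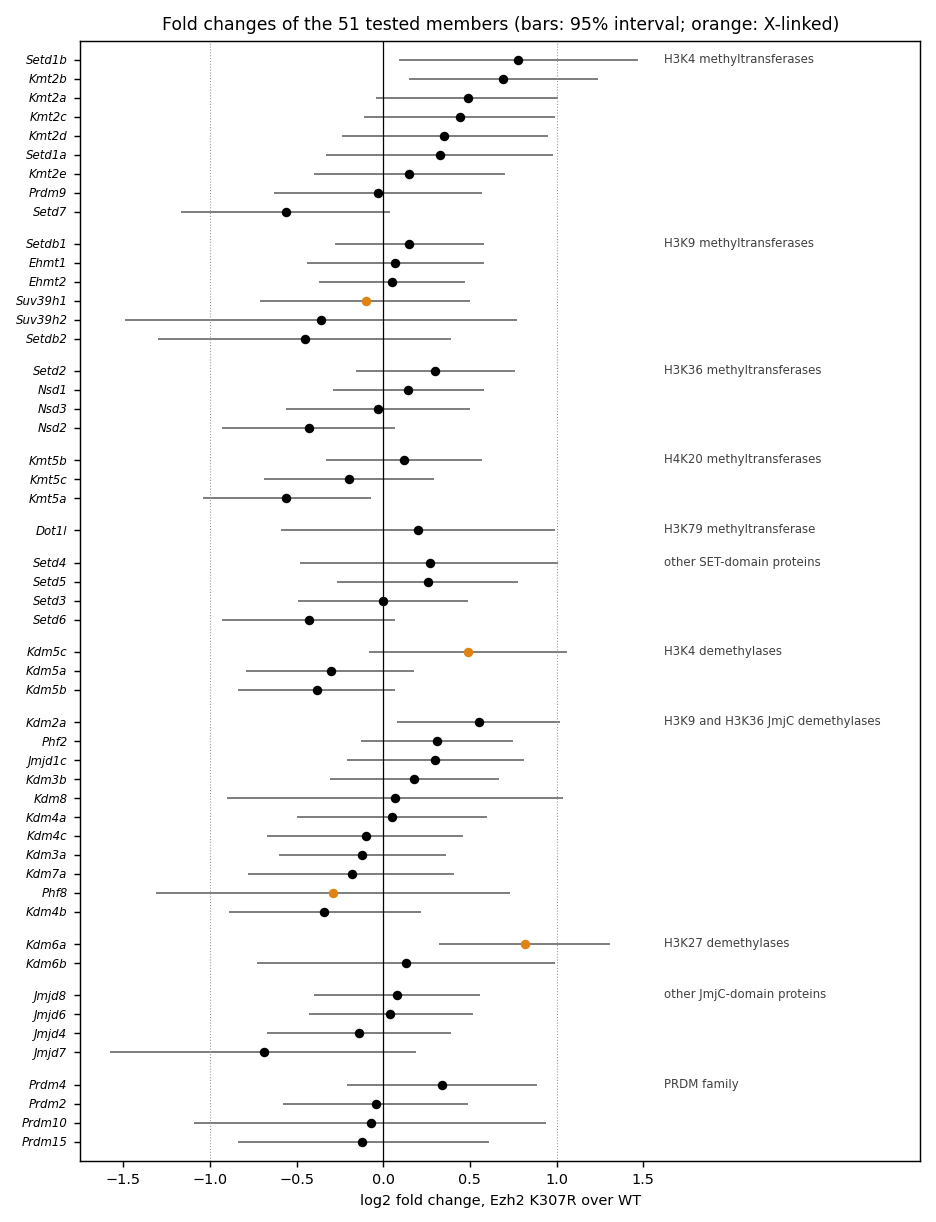
Log2 fold change of Ezh2 K307R over WT with its 95% interval (bar) for each of the 51 tested members, grouped by role, with X-linked members in orange and dotted lines at -1 and 1. The points run from -0.69 (Jmjd7) to 0.82 (Kdm6a), and the 6 COMPASS catalytic subunits at the top of the first group all lie right of 0.

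Writers of H3K4 methylation comprised 9 members, of which 0 passed the test, 7 had positive and 2 negative log2 fold changes, and the median was 0.35. Kmt2b (MLL2), which trimethylates H3K4 at CG-rich promoters, had 27.5 and 40.1 CPM in the K307R livers and 19.2 and 22.6 CPM in the WT livers. Both K307R values lay above both WT values (log2 fold change 0.69 ± 0.24, SE, adjusted p 0.191 by edgeR). Setd1b, a catalytic subunit of the SET1 complexes, had 34.5 and 66.3 CPM in the K307R livers and 28.9 and 29.7 CPM in the WT livers. The log2 fold change was 0.78 ± 0.30 (SE, adjusted p 0.239 by edgeR). Replicate 2 of the K307R livers set most of this value: without it the log2 fold change was 0.24 (edgeR adjusted p 0.818), and without replicate 1 it was 1.18 and passed the test (edgeR adjusted p 0.0421). Setd7, first described as an H3K4 monomethyltransferase and also active on other proteins, had 5.78 and 5.68 CPM in the K307R livers and 7.17 and 9.75 CPM in the WT livers. Both K307R livers were below both WT livers, at -0.56 ± 0.26 on the log2 scale (SE, adjusted p 0.326 by edgeR). Kmt2e, a relative without methyltransferase activity of its own, stood at 0.15. Prdm9, known for marking recombination sites in meiosis, had 5.31 and 5.06 CPM in the K307R livers and 5.38 and 5.21 CPM in the WT livers, and overlaps the annotated pseudogene Gm18564.

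The 6 catalytic subunits of the COMPASS family complexes, Kmt2a, Kmt2b, Kmt2c, Kmt2d, Setd1a and Setd1b, all had positive log2 fold changes, from 0.33 to 0.78 with a median of 0.46, and were set apart after their values had been seen. Kmt2a (MLL1) had 16.9 and 23.8 CPM in the K307R livers and 15.2 and 13.8 CPM in the WT livers. Kmt2c had 18.1 and 27.3 CPM in the K307R livers and 17.2 and 16.3 CPM in the WT livers. Kmt2d had 36.4 and 57.1 CPM in the K307R livers and 32.3 and 41.0 CPM in the WT livers. In each of these genes replicate 2 was the higher of the K307R livers. Setd1a had 23.7 and 38.4 CPM in the K307R livers and 20.5 and 29.0 CPM in the WT livers, so its genotypes overlapped, as did those of Kmt2d. The 6 values were positive under every scaling, filter and test tried. Without K307R replicate 2 only 4 of the 6 were positive, with a median of 0.17, and without K307R replicate 1 all 6 were, with a median of 0.71.

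That replicate pattern extended to other long transcripts. Of the 51 members tested, 42 (82.4%) had a higher CPM in replicate 2 than in replicate 1 of the K307R livers, with a median log2 ratio of 0.32, against a median of 0.00 over all genes. In the WT livers 33 members (64.7%) were higher in replicate 2, with a median of 0.07, against 0.01 over all genes. The longest listed transcript had a median length of 5934 bases among the members and 2858 bases among all genes tested. In the K307R livers the members' median ratio was -0.31 for the 4 under 2000 bases, 0.02 for the 10 of 2000 to 4000 bases, 0.28 for the 13 of 4000 to 6000 bases, 0.38 for the 15 of 6000 to 9000 bases and 0.50 for the 9 above. All genes in those classes had medians of -0.15, 0.02, 0.09, 0.18 and 0.25. As a description over genes, which share the same livers and are not replicates, the rank correlation of this ratio with length was 0.55 for the members and 0.30 for all genes in the K307R livers, and -0.08 and 0.04 in the WT livers. The median log2 fold change between genotypes was 0.19 over the members without K307R replicate 1 and -0.06 without K307R replicate 2. From the shortest to the longest class, the members' median log2 fold change between genotypes in all livers was -0.19, -0.05, 0.05, 0.15 and 0.14. Over all genes in those classes it was -0.1, 0.02, 0.08, 0.11 and 0.07. The part of transcript length in the fold changes was not tested.

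**Figure D3:**
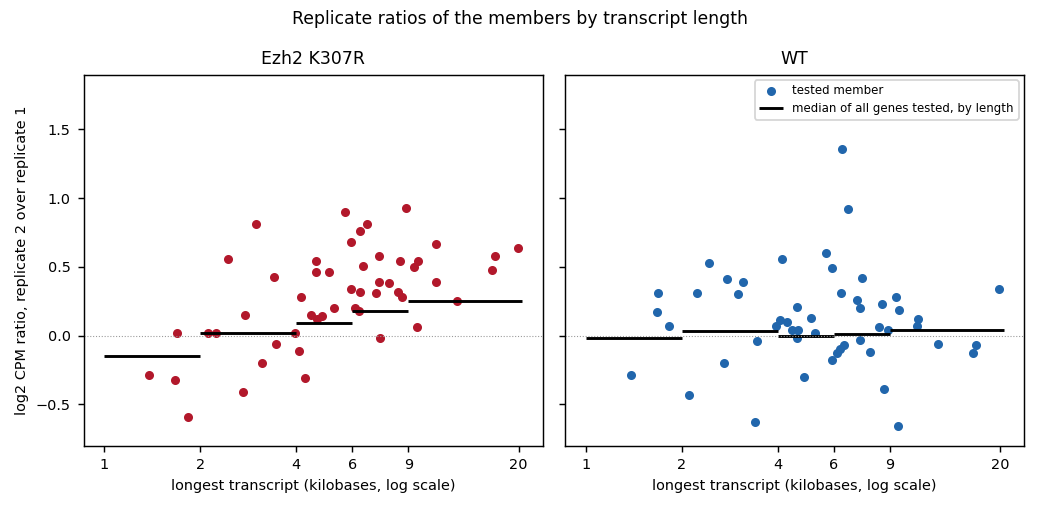
Log2 ratio of CPM in replicate 2 over replicate 1 against the longest transcript of each of the 51 tested members in kilobases (log scale), for the K307R livers (left, red) and the WT livers (right, blue), with the median of all genes tested by length class as black lines. In the K307R livers the members' class medians run from -0.31 for the shortest to 0.50 for the longest, while in the WT livers they stay between 0.06 and 0.19.

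The 6 writers of H3K9 methylation were balanced, with 3 positive and 3 negative log2 fold changes, a median of -0.03 and 0 calls. Setdb1, which silences retroelements with Atf7ip and Trim28, had 23.4 and 25.4 CPM in the K307R livers and 21.6 and 22.3 CPM in the WT livers. The difference was 0.15 ± 0.19 on the log2 scale (SE, adjusted p 0.75 by edgeR), with an interval of -0.28 to 0.58. Setdb2, its relative, had 2.71 and 5.12 CPM in the K307R livers and 4.74 and 5.96 CPM in the WT livers, which overlapped. Ehmt2 stood at 66.5 and 61.6 CPM in the K307R livers and 59.4 and 64.2 CPM in the WT livers, and its interval of -0.37 to 0.47 was the narrowest among the 51. Its partner Ehmt1 had a log2 fold change of 0.07. Suv39h2, which trimethylates pericentromeric chromatin, had 15 and 21 reads in the K307R livers and 15 and 32 reads in the WT livers, and its interval of -1.49 to 0.77 was wide.

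Writers of H3K36 methylation gave 0 calls among 4, with a median of 0.06. Setd2, which trimethylates H3K36 behind elongating RNA polymerase II, had 35.1 and 44.0 CPM in the K307R livers and 31.5 and 32.8 CPM in the WT livers, which did not overlap, at 0.30 ± 0.20 (SE, adjusted p 0.507 by edgeR). Nsd2 had 10.8 and 14.3 CPM in the K307R livers and 17.6 and 16.1 CPM in the WT livers. Both K307R livers lay below both WT livers, at -0.43 ± 0.22 (SE, adjusted p 0.380 by edgeR). Nsd2 overlaps the gene Nelfa in the annotation. Nsd1 and Nsd3 had log2 fold changes of 0.14 and -0.03, and the sign of Nsd3 turned to 0.04 with total-count scaling.

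Among the 3 writers of H4K20 methylation, 0 passed and 2 had K307R livers below both WT livers in CPM, as did 23.4% of all genes. Kmt5a (PR-Set7), which is known to peak in mitosis, had 29.3 and 32.5 CPM in the K307R livers and 39.0 and 51.8 CPM in the WT livers. The log2 fold change was -0.56 ± 0.21 (SE, adjusted p 0.236 by edgeR), and its interval ran from -1.04 to -0.07. The 5 markers of dividing cells summed to 4.51 and 7.31 CPM in the K307R livers and 6.08 and 21.5 CPM in the WT livers, and none of them passed the test. Their part in the Kmt5a value was not tested. Kmt5c, which trimethylates H4K20, had 11.6 and 11.8 CPM in the K307R livers and 11.9 and 14.9 CPM in the WT livers, at -0.20 ± 0.21 (SE, adjusted p 0.708 by edgeR). On the FPKM scale Kmt5c overlapped, with 5.30 and 5.49 FPKM in the K307R livers and 4.8 and 7.07 FPKM in the WT livers. Kmt5b, with a log2 fold change of 0.12, overlapped between genotypes.

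Dot1l, the H3K79 methyltransferase, had 10.3 and 19.6 CPM in the K307R livers and 10.2 and 15.8 CPM in the WT livers. Its replicates were farther apart than its genotypes, at 0.20 ± 0.34 (SE, adjusted p 0.819 by edgeR). Of the 4 other SET-domain genes 0 passed. Setd6, which methylates the NF-kappaB subunit RelA, had 239 and 196 reads in the K307R livers and 247 and 342 reads in the WT livers. Those groups did not overlap, at -0.43 ± 0.22 (SE, adjusted p 0.380 by edgeR). On the FPKM scale they did, with 7.71 and 6.28 FPKM in the K307R livers and 7.68 and 10.2 FPKM in the WT livers. Setd6 overlaps the gene Cnot1 in the annotation. Setd5 had 26.6 and 38.2 CPM in the K307R livers and 27.8 and 26.5 CPM in the WT livers, and Setd3 had a log2 fold change of 0.00 ± 0.21 (SE). Setd4 stood at 0.27 with genotypes that overlapped.

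The 3 H3K4 erasers of the Kdm5 family did not share a direction, and 0 passed. Kdm5b had 13.1 and 14.9 CPM in the K307R livers and 18.9 and 17.6 CPM in the WT livers. Kdm5a had 16.5 and 21.8 CPM in the K307R livers and 23.1 and 24.2 CPM in the WT livers. In CPM both were lower in both K307R livers than in either WT liver. The log2 fold changes were -0.38 ± 0.20 for Kdm5b (SE, adjusted p 0.382 by edgeR) and -0.30 ± 0.21 for Kdm5a (SE, adjusted p 0.528 by edgeR). On the FPKM scale Kdm5a overlapped, with 1.5 and 2.04 FPKM in the K307R livers and 1.85 and 2.28 FPKM in the WT livers. The X-linked Kdm5c had 64.7 and 103 CPM in the K307R livers and 57.1 and 62.3 CPM in the WT livers. In CPM its K307R livers were the higher ones, at 0.49 ± 0.25 (SE, adjusted p 0.378 by edgeR). Without K307R replicate 2 the log2 fold change of Kdm5c was 0.12. On the FPKM scale Kdm5c overlapped, with 5.84 and 9.57 FPKM in the K307R livers and 4.55 and 5.85 FPKM in the WT livers.

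The H3K27 erasers act on the mark written by Ezh2. Kdm6a (UTX) had 19.2 and 24.3 CPM in the K307R livers and 13.1 and 11.5 CPM in the WT livers. Both K307R livers stood above both WT livers, by a fold of 1.76, at a log2 fold change of 0.82 ± 0.21 (SE) with an interval of 0.32 to 1.31. The edgeR adjusted p was 0.0953. With no filter on low counts it was 0.0497, and it ran from 0.0497 to 0.368 over the 14 alternatives, in all of which the log2 fold change was positive, from 0.64 to 0.98. Kdm6b (JMJD3), the inducible relative on chromosome 11, had 11.4 and 20.4 CPM in the K307R livers and 9.84 and 19.1 CPM in the WT livers. Its genotypes overlapped and its replicates differed more than its genotypes, at 0.13 ± 0.37 (SE, adjusted p 0.899 by edgeR).

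Kdm6a, Kdm5c, Phf8 and Suv39h1 were the 4 X-linked members. In mouse, Kdm6a and Kdm5c are known to be transcribed also from the inactive X chromosome. Phf8, an eraser of H3K9 dimethylation and H4K20 monomethylation, had 11.4 and 19.6 CPM in the K307R livers and 10.4 and 27.5 CPM in the WT livers. Suv39h1, which trimethylates H3K9, had 7.32 and 6.29 CPM in the K307R livers and 6.25 and 8.33 CPM in the WT livers. Both overlapped between genotypes, at -0.29 ± 0.44 for Phf8 (SE, adjusted p 0.802 by edgeR) and -0.10 ± 0.26 for Suv39h1 (SE, adjusted p 0.888 by edgeR). Other genes known to escape X inactivation were read beside them. Ddx3x had 4706 and 5281 reads in the K307R livers and 3315 and 3290 reads in the WT livers, at a log2 fold change of 0.58 ± 0.22 (SE, adjusted p 0.24 by edgeR). Eif2s3x had 3213 and 3393 reads in the K307R livers and 1942 and 2227 reads in the WT livers, at 0.66 ± 0.19 (SE, adjusted p 0.133 by edgeR). Pbdc1 stood at -0.07, and the median over the 383 X-linked genes tested was -0.01. Uty, the Y-linked relative of Kdm6a, had 0 reads in both K307R livers and 309 and 223 reads in the WT livers. For Kdm6a and Kdm5c, genotype and sex-chromosome pattern cannot be told apart.

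**Figure D4:**
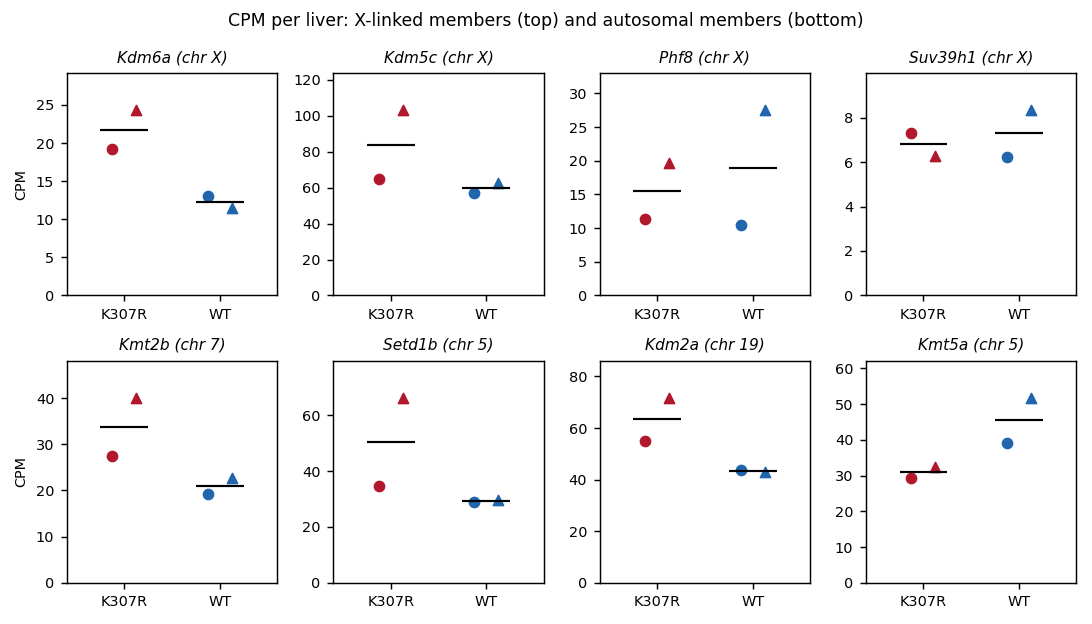
CPM in each liver for the X-linked members (top row) and for 4 autosomal members with an unadjusted p under 0.05 (bottom row), with K307R livers (red) left of WT livers (blue), replicate 1 as a circle, replicate 2 as a triangle and the mean as a line. Kdm6a separates the genotypes (19.2 and 24.3 against 13.1 and 11.5 CPM), while Phf8 and Suv39h1 overlap.

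The JmjC erasers of H3K9 and H3K36 methylation comprised 11 members in the tables, with 6 positive and 5 negative log2 fold changes, a median of 0.05 and 0 calls. Kdm2a, which binds unmethylated CG-rich DNA and removes H3K36 dimethylation, had 54.8 and 71.8 CPM in the K307R livers and 43.7 and 42.8 CPM in the WT livers. The genotypes did not overlap, at 0.55 ± 0.20 (SE, adjusted p 0.226 by edgeR) with an interval of 0.08 to 1.02. Phf2 had 27.7 and 31.9 CPM in the K307R livers and 23.8 and 24.2 CPM in the WT livers, at 0.31 ± 0.19 (SE, adjusted p 0.468 by edgeR). Kdm4b was the one member of this group with both K307R livers below both WT livers in CPM, at 7.53 and 10.5 CPM against 11.5 and 11.3 CPM. On the FPKM scale Kdm4b overlapped, with 1.63 and 2.36 FPKM in the K307R livers and 2.21 and 2.55 FPKM in the WT livers. Its relatives Kdm4a and Kdm4c, which like it act on H3K9 and H3K36 trimethylation, stood at 0.05 and -0.10. The H3K9 dimethylation erasers Kdm3a and Kdm3b stood at -0.12 and 0.18, their relative Jmjd1c at 0.30, Kdm7a at -0.18 and Kdm8 at 0.07, all with overlapping genotypes.

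The 4 other JmjC proteins gave 0 calls. Jmjd7, a hydroxylase of cytoplasmic proteins, had 1.80 and 1.38 CPM in the K307R livers and 2.89 and 2.27 CPM in the WT livers. This was the lowest log2 fold change of all members tested, -0.69 ± 0.38 (SE, adjusted p 0.423 by edgeR), on 34 and 27 reads in the K307R livers and 50 and 48 reads in the WT livers. Jmjd7 overlaps the annotated gene Gm28042. Jmjd4, which hydroxylates a translation termination factor, had 7.06 and 7.88 CPM in the K307R livers and 8.10 and 8.33 CPM in the WT livers, at -0.14 ± 0.23 (SE, adjusted p 0.816 by edgeR). Jmjd6 and Jmjd8 stood at 0.04 and 0.08 with overlapping genotypes.

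Of the 11 PRDM genes in the tables other than Prdm9, zinc-finger proteins with a SET-like domain, 4 were tested and 0 passed. Prdm4 had 7.53 and 7.67 CPM in the K307R livers and 5.84 and 6.15 CPM in the WT livers. Its genotypes did not overlap, at 0.34 ± 0.24 (SE, adjusted p 0.533 by edgeR). Prdm15 had 3.34 and 4.30 CPM in the K307R livers and 3.65 and 4.64 CPM in the WT livers, at -0.12 ± 0.31 (SE, adjusted p 0.891 by edgeR). Prdm2 and Prdm10 stood at -0.04 and -0.07.

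Transcript shares varied within genes. Of the 58 members 19 had several listed transcripts, and 13 of these had a transcript at 0 in a liver. The most abundant transcript was the same in all 4 livers for 11 members and differed for 8, among them Nsd2, Suv39h1 and Kmt5c. For Nsd3 the 9652-base transcript took 46.8% and 39.8% of the gene's counts in the K307R livers and 44.2% and 46.6% in the WT livers, which overlapped. Its 3680-base transcript took 12.7% and 15.3% in the K307R livers and 9.10% and 7.72% in the WT livers, which did not overlap. The 3805-base transcript of Ehmt2 took 59.7% and 60.5% in the K307R livers and 46.5% and 39.3% in the WT livers, and the 4644-base transcript of Setdb1 took 79.1% and 87.1% against 65.8% and 74.3%. Over the 18 tested members with several transcripts, the shares of 10 of 49 transcripts (20.4%) did not overlap between genotypes, against 27.2% over all such genes tested. The Nsd3, Ehmt2 and Setdb1 transcripts were picked after their values were seen. For Kdm6a the 5935-base transcript held 182 reads in K307R replicate 2 and 0 in each of the other 3 livers, where all reads went to the 5918-base transcript. RSEM divides reads between such near-identical transcripts, so these shares are uncertain one by one, while the gene's summed count does not depend on them. The summed FPKM does depend on the shares where transcripts differ in length. The FPKM level of Nsd3 thus rests in part on this division of reads.

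Partners and readers of these enzymes, 37 genes in 5 lists, also gave 0 calls by edgeR, against 2.86% of all genes, with a median log2 fold change of 0.08. An unadjusted p under 0.05 was reached by 3 of them (8.11%), against 16.8% of all genes. Men1 (menin), which holds Kmt2a and Kmt2b on chromatin, had 28.1 and 34.9 CPM in the K307R livers and 22.6 and 21.4 CPM in the WT livers, at 0.52 ± 0.20 (SE, adjusted p 0.242 by edgeR). Mllt6, listed with the Dot1l partners, had 22.5 and 23.1 CPM in the K307R livers and 13.7 and 17.4 CPM in the WT livers, at 0.55 ± 0.20 (SE, adjusted p 0.230 by edgeR). Atf7ip, the partner of Setdb1, had 10.7 and 12.3 CPM in the K307R livers and 7.93 and 8.09 CPM in the WT livers, at 0.52 ± 0.22 (SE, adjusted p 0.278 by edgeR). In all 3 genes, which were picked by p, both K307R livers stood above both WT livers. So they did in CPM for 12 of the 37 partners, against 25.2% of all genes. For 3 other partners, among them the COMPASS partner Psip1 at -0.39, both K307R livers lay below both WT livers, against 23.4% of all genes. The H3K36 methyltransferase Ash1l and the H3K36 reader Msl3, with the smallest p of their lists, stood at 0.40 ± 0.20 and 0.24 ± 0.19 (SE). By list, the medians were 0.10 for the 12 COMPASS partners, 0.10 for the 8 partners and readers of H3K9 methylation, 0.15 for the 6 Dot1l partners, -0.05 for the 6 other methyltransferases and JmjC proteins and 0.01 for the 5 readers of H3K36 methylation.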

How the data were processed

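RNA-seq of 4 livers was used, 2 Ezh2 K307R and 2 WT, grouped by the labels' genotype. HISAT, Bowtie2, RSEM and mm10 are named, without versions, per the submitters' processing notes; the sources used here do not give the strand setting. The deposited tables list expected counts per RefSeq transcript, not normalized, and FPKM values that the authors scaled to transcript length and depth, per the file headers. A transcript not listed was set to 0. Expected counts and FPKM were summed per gene, the counts were rounded, and symbols came from RefSeq's gene table of GRCm38.p6. Of the 58 members 32 overlap another annotated gene, and reads of overlapping genes are uncertain. edgeR 4.0.16 (R 4.3.3) quasi-likelihood tests with TMM factors from 0.896 to 1.055, filterByExpr and genotype as the only term gave log2 fold changes, SE and Benjamini-Hochberg adjusted p values over 12837 genes at a threshold of 0.05. Replicates of a genotype differed by far more than sampling noise. CPM uses TMM-scaled library sizes, and replicate ratios used CPM plus 0.5. The floor of 3 reads covers counting error only. DESeq2 1.42.0, limma 3.58.1, other scalings, filters and pseudocounts, a replicate block and leaving out each liver were the alternatives.

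Described in each liver were the X-linked members, the 2 with the smallest p of each role, the 5 with the highest FPKM and the 5 largest differences each way without overlap; others were named after their values were seen. The values of 1 member below the filter are not reported here. The members and lists were chosen with earlier results of these data known. The numbers 1 and 2 are shared between genotypes in the labels, which do not say that they mark a pair.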

Additional observations from a re-analysis of the deposited data

How the results depend on the processing

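Over 14 alternatives, 23 of the 33 genes described by rule kept the sign of their log2 fold change and 10 did not, 8 of them only when a liver was left out; the cause was not tested. Leaving out a liver turned Dot1l (-0.34 to 0.59), Ehmt2 (0.00 to 0.11), Jmjd8 (-0.12 to 0.31), Kdm6b (-0.35 to 0.69), Nsd3 (-0.33 to 0.22), Phf8 (-0.82 to 0.58), Prdm15 (-0.31 to 0.06), Setd3 (-0.22 to 0.20), Setd5 (-0.03 to 0.49) and Suv39h1 (-0.29 to 0.12). Nsd3 was 0.00 with upper-quartile scaling, 0.04 with total-count scaling and 0.05 on either FPKM scale. Setd3 was -0.01 with RLE scaling, DESeq2, limma-voom and the replicate block. Members called were 1 higher with no filter (Kdm6a, 1 of the H3K27 demethylases, edgeR adjusted p 0.0497, 0.0497 to 0.368 over the alternatives) and 0 to 1 higher with a liver left out (Setd1b, 1 of the H3K4 methyltransferases, edgeR adjusted p 0.0421 without K307R replicate 1, 0.0421 to 0.818 over the alternatives). Partners called stayed at 0 under all 14.

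Over all genes 410 were called higher and 419 lower with no filter, 368 and 370 by DESeq2, 94 and 69 by limma on log2(FPKM + 1), 91 and 70 on log2(FPKM + 0.1), and 117 to 327 and 94 to 393 with a liver left out. Total-count scaling called 188 and 124, so that 60.3% of calls were higher, against 48.5% with TMM. With the replicate number as a block 166 were higher and 181 lower, and no member was called. Deviations of same-numbered livers correlated at 0.00 over all genes and 0.35 over the members. These values cannot settle whether the numbers mark pairs, since the labels do not say what the numbers share. The main fit did not take them as pairs. With 2 livers a genotype, member intervals had a median half-width of 0.53 on the log2 scale. These intervals are not adjusted for the number of genes tested, and passing the adjusted test took more. Kdm6a, at 0.82 with an interval of 0.32 to 1.31, did not pass.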
